A study of Mus musculus with 8 samples.

Results

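A pair of clonal lines of mouse embryonic stem (ES) cells with a stable knockdown of Taf5 were set against each other, Taf5-kd line 2 against Taf5-kd line 1, over all 41174 mouse probes of a dual-colour array. The comparison rests on 4 of the 8 arrays of the series, 2 for each Taf5-kd line, and the other 4 arrays, 2 for each of 2 control-kd lines, gave the difference between 2 clones without a Taf5 hairpin. All 4 lines came from IB10 E14 mouse ES cells that were transduced with pLKO-puro lentivirus, a vector for short hairpin RNAs, and selected with puromycin. Resistant colonies were picked and expanded, so each line is 1 clone, and all lines grew on gelatin in serum with LIF, the cytokine that holds mouse ES cells in self-renewal. The Taf5-kd lines express a hairpin against Taf5 and the control-kd lines a control hairpin, and the hairpin sequences were not used here.

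Every array carried RNA of 1 line in one dye and RNA pooled from the parental ES cells in the other, with the line in Cy3 on array 1 and in Cy5 on array 2. The series text states that lines were cultured in duplicate, which makes both arrays of a line separate cultures of the same clone. The p-values below therefore measure the spread between cultures, and with 1 clone on each side a difference between the lines has no replicate at the level of clones. Values are log2 ratios of line over parental pool, and a difference is line 2 minus line 1, the mean of the 2 within-dye differences, given as log2 units ± its SE from the limma fit (n = 2 arrays a line). A probe or gene was called when its limma adjusted p (Benjamini-Hochberg over all 41174 probes) was under 0.05, and the brightest probe stood for a gene that had more than 1. Over the 4 Taf5-kd arrays the median signal was 127 to 186 intensity units over a background of 35.0 to 37.0, and 90.9 to 98.7% of probes were above background. The number of arrays limits the precision.

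The TAF5 protein is part of TFIID, a general transcription factor that carries the TATA-binding protein and binds core promoters so that RNA polymerase II can start transcription. ES cells of the naive state express the pluripotency factors Oct4 (Pou5f1), Sox2 and Nanog, and on leaving that state pass through an Fgf5-positive primed epiblast before they enter the germ layers. The first mesoderm and endoderm arise in the primitive streak under Wnt and Nodal signals and express T (Brachyury).

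The targeted gene was measured first. The brightest of 3 Taf5 probes (chromosome 19) stood at -1.08 and -1.19 on the arrays of Taf5-kd line 2 and at -1.18 and -1.16 on those of line 1. The same probe averaged 0.17 in control-kd line 2 and 0.53 in control-kd line 1, so both Taf5-kd lines lay below both control-kd lines and the 2 Taf5-kd lines overlapped. Their difference was 0.03 ± 0.06, with a 95% confidence interval of -0.10 to 0.17 (limma adjusted p = 0.827), and the sign of this value turned under 3 treatments of the scanner values and without array 1 of line 2 (-0.0403), never reaching the threshold. On the other Taf5 probes it was 0.00 ± 0.07 and 0.10 ± 0.06 (limma adjusted p = 0.989 and 0.378). Of 18 TFIID subunits 0 were called by limma on their brightest probe, and 4 had an unadjusted p under 0.05. The smallest p belonged to Taf1, the largest TFIID subunit, at 0.03 and -0.03 in line 2 and -0.20 and -0.22 in line 1, with a difference of 0.21 ± 0.06 (limma adjusted p = 0.0695). Among dimmer Taf1 probes, a pair with differences of 0.27 ± 0.05 and 0.23 ± 0.06 was called (limma adjusted p = 0.00889 and 0.0304).

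The 2 clones differed at many other genes. Between Taf5-kd line 2 and line 1, 4557 probes were called, 11.1% of all probes tested. Of these 1783 were higher (4.33%) and 2774 lower (6.74%) in line 2. Every called probe had the same sign in both array pairs, against 63.9% of all probes. The call rests on the mean of these same 2 pair differences, so this agreement largely follows from the call and is no separate support. Most differences were small, 4005 of the called probes (87.9%) lying under 1.5-fold. At least 2-fold differences were called for 142 probes (0.345%), of which 41 (0.0996%) were higher and 101 (0.245%) lower in line 2. By genes, 2708 of 18295 were called (14.8%), 1020 higher (5.58%) and 1688 lower (9.23%) in line 2. The shares of 5.58 and 9.23% are the background for every list count below. The median difference over genes was 0.00, and the 5th and 95th percentiles were -0.32 and 0.22. The number of calls depended on each Taf5-kd array: without array 1 or array 2 of line 2 it was 2739 or 2034, and without array 1 or array 2 of line 1 it was 2486 or 2166. It also depended on the processing, and the cause was not tested. When scanner values were background-corrected by normexp and only centred on the array median, 112 probes were called, 19.6% of them higher in line 2 against 39.1% in the processed values.

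**Figure D1:**
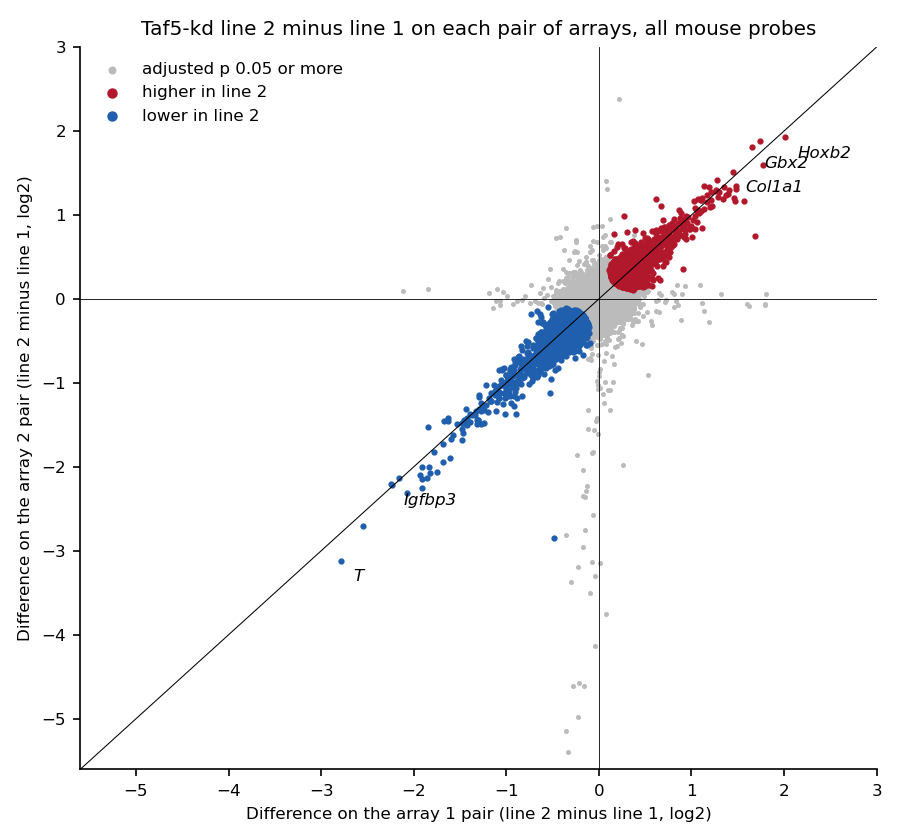
Each point is 1 of 41174 mouse probes, placed by the log2 difference Taf5-kd line 2 minus line 1 on the array 1 pair (x axis) and on the array 2 pair (y axis), with called probes in red (higher in line 2) and blue (lower). Called probes lie along the diagonal, from T at the lower left to Hoxb2 at the upper right, while grey probes that moved in 1 pair only lie along the axes.

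The correlation of the differences between the 2 array pairs across all probes was 0.646, and 0.784 across probes brighter than the median, as a description over probes that share the same 4 cell cultures. The log2 ratios of the 2 arrays of a line correlated at 0.943 for line 2 and 0.928 for line 1. Between the control-kd lines, which share no samples with the Taf5-kd comparison, 6048 probes were called (14.7%), 114 of them at least 2-fold (0.277%), and the array pairs correlated at 0.687. That count was 3791 or 3486 without array 1 or array 2 of control-kd line 2, 3898 or 4020 without array 1 or array 2 of control-kd line 1, and 377 with median centring alone, of which 96.0% were higher in control-kd line 2 against 50.7% in the processed values. There were thus fewer called probes between the Taf5-kd clones than between the control-kd clones and more of at least 2-fold. The order of the 2-fold counts was not stable, as with median centring alone these probes numbered 104 and 285. Leaving out a control-kd array takes it from the control-kd comparison only and lowers the power there, so those counts cannot order the 2 pairs of clones. The differences between these counts were not tested. By genes, 3217 of 18295 (17.6%) were called between the control-kd lines, which is the background for the list counts of that pair below.

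The largest difference was in T, the T-box factor that marks the primitive streak. T stood at -0.38 and -0.51 in Taf5-kd line 2 and at 2.40 and 2.61 in line 1. The control-kd lines were at -2.43 and -2.61 (line 2) and -2.43 and -2.34 (line 1), so Taf5-kd line 1 lay above the parental pool, the control-kd lines far below it, and Taf5-kd line 2 between them. The difference was -2.95 ± 0.09, 7.73-fold lower in line 2 (limma adjusted p = 8.79e-08). In these bulk samples fewer cells that express a gene and less RNA per cell cannot be told apart.

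Genes of the primitive streak and early mesoderm were lower in Taf5-kd line 2. Of 20 measured, 10 were called lower and 0 higher (11 at an unadjusted p under 0.05), against 9.23 and 5.58% of all genes. The median difference was -0.19 against 0.00 over all genes. Between the control-kd lines 5 of the 20 were called, against 17.6% of all genes. Wnt3, the ligand needed to form the streak, stood at -1.35 and -1.24 in line 2 and at 0.11 and 0.20 in line 1. The control-kd arrays were between -3.15 and -2.97 for Wnt3, and the Taf5-kd lines differed by -1.45 ± 0.07, 2.74-fold (limma adjusted p = 1.14e-06). A dimmer Wnt3 probe differed less, by -0.79 ± 0.08. Eomes, a T-box factor of the anterior streak, was at -0.09 and -0.22 in line 2 and at 0.83 and 0.81 in line 1 (difference -0.97 ± 0.09, limma adjusted p = 5.23e-05). Cdx2, a homeobox factor of posterior mesoderm and trophectoderm, was high in both clones, at 1.49 and 1.45 in line 2 and 2.38 and 2.44 in line 1, against -1.29 to -1.05 on the control-kd arrays. For Cdx2 the clones do not overlap, and the difference was -0.95 ± 0.07 (limma adjusted p = 1.09e-05). Fgf8, a ligand of the streak, Mixl1, a mesendoderm homeobox factor, and Gsc, a homeobox gene of the organizer, differed by -0.71 ± 0.06, -0.66 ± 0.05 and -0.63 ± 0.06. Gsc was above background on 1 of the 2 line 2 arrays.

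Targets of the Wnt pathway overlapped with this group and showed the same direction in 9 of 19 measured members, with 2 called higher and a median of -0.12. Between the control-kd lines 8 of the 19 were called. Sp5, a zinc-finger factor switched on by beta-catenin, stood at 0.24 and 0.07 in line 2 and at 2.10 and 2.20 in line 1. The line 1 arrays are the high ones, the control-kd arrays lying between -1.83 and -1.08, and Sp5 was 3.99-fold lower in line 2 (difference -2.0 ± 0.08, limma adjusted p = 2.52e-07). Axin2, the feedback inhibitor of the pathway, was at 0.36 and 0.40 in line 2 and 1.44 and 1.43 in line 1 (difference -1.06 ± 0.09, limma adjusted p = 3.82e-05). Myc and Dkk1, a proto-oncogene and a secreted Wnt inhibitor, were the members called higher in line 2, by 0.53 ± 0.06 and 0.23 ± 0.05.

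Markers of the primed epiblast were also lower in line 2: 8 of 17 were called lower and 1 higher, with a median of -0.12. Between the control-kd lines 11 of the 17 were called, against 17.6% of all genes, so differences at these genes are not particular to the Taf5-kd clones. Fgf5, the classical marker of that state, stood at -1.01 and -1.15 in line 2 and at 0.90 and 0.85 in line 1, a difference of -1.96 ± 0.09 or 3.89-fold (limma adjusted p = 5.47e-07). Otx2, the homeobox factor that helps open the primed programme, was at -0.08 and -0.05 in line 2 and 1.02 and 1.04 in line 1 (difference -1.10 ± 0.06, limma adjusted p = 1.47e-06). Pim2, a serine kinase, and Dnmt3b, a de novo DNA methyltransferase, were lower (differences -1.08 ± 0.06 and -0.67 ± 0.05), while the related Dnmt3a was higher by 0.37 ± 0.05. Fst, which is in none of the lists and encodes the activin-binding follistatin, was at -0.83 and -0.89 in line 2 and 1.01 and 1.11 in line 1, 3.78-fold lower (difference -1.92 ± 0.07, limma adjusted p = 2.86e-07).

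Naive and core pluripotency genes ran the other way. Of 29 measured, 13 were called higher and 2 lower in line 2, with a median of 0.22, against 5.58 and 9.23% of all genes. As many, 15 of the 29, were called between the control-kd lines, against 17.6% of all genes. Nr0b1 (Dax1), a nuclear receptor bound to Oct4, was at 0.07 and 0.04 in line 2 and at -0.83 and -0.92 in line 1, and between 1.32 and 1.57 on the control-kd arrays. The lines differed by 0.93 ± 0.06, 1.90-fold (limma adjusted p = 4.67e-06). Zfp42 (Rex1), a zinc-finger marker of naive cells, was at 0.95 and 1.29 in line 2 and 0.33 and 0.10 in line 1 (difference 0.90 ± 0.11, limma adjusted p = 0.000341). Tbx3, a T-box factor downstream of LIF, stood at 0.05 and -0.04 in line 2 and at -0.75 and -0.68 in line 1, a difference of 0.72 ± 0.06 (limma adjusted p = 6.04e-05). Dppa5a, Dppa4, Klf2, Esrrb and Utf1 were higher by 0.62 ± 0.14, 0.60 ± 0.05, 0.51 ± 0.08, 0.47 ± 0.05 and 0.44 ± 0.06. Going against this direction were Dppa3 (Stella), a maternal factor that protects DNA methylation, and Tfcp2l1, a naive-state transcription factor, lower in line 2 (differences -0.75 ± 0.07 and -0.31 ± 0.05).

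The factors that define the ES state did not pass the test. Pou5f1 averaged 0.17 in line 2 and -0.05 in line 1 (difference 0.22, limma adjusted p = 0.0894), Sox2 0.09 and -0.01 (limma adjusted p = 0.320), and Nanog 0.26 and 0.10 (limma adjusted p = 0.167). All 9 ES cell markers looked up (Pou5f1, Sox2, Nanog, Zfp42, Dppa5a, Esrrb, Utf1, Fgf4 and Tdgf1) were above background on 4 of 4 Taf5-kd arrays. Within each array their signals lay at or above the 90.6th percentile of probes, with the exception of Fgf4, whose lowest percentile was 63.2.

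**Figure D2:**
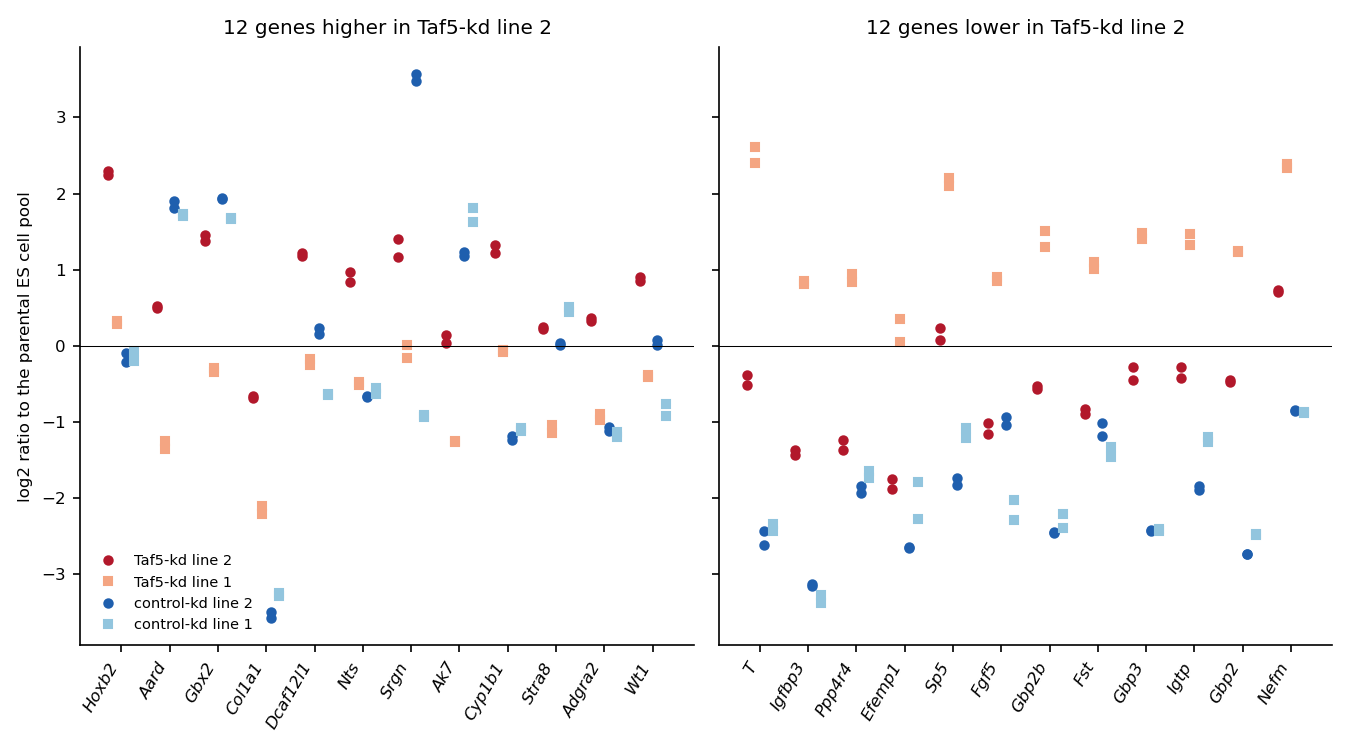
Log2 ratio to the parental pool on each array, for the 12 genes with the largest differences higher in Taf5-kd line 2 (left) and the 12 lower (right), with 2 points a line. In the right panel the line 1 squares lie above every other line, from 0.06 (Efemp1) to 2.61 (T), and the control-kd lines lie mostly at the bottom.

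Genes that respond to LIF through STAT3 included 7 called higher and 2 lower of 16 measured, with a median of 0.17. Between the control-kd lines 9 of the 16 were called. Gbx2, a homeobox factor that is a STAT3 target in ES cells and also a marker of the midbrain-hindbrain boundary, stood at 1.37 and 1.46 in line 2 and at -0.28 and -0.35 in line 1. The control-kd arrays were between 1.66 and 1.94, so line 1 is the low one, and the difference was 1.73 ± 0.06 or 3.32-fold (limma adjusted p = 1.06e-07). Mcl1, an anti-apoptotic factor, and Icam1, an adhesion molecule, were higher by 0.59 ± 0.05 and 0.58 ± 0.05. The 2 members called lower were Tfcp2l1, given above, and the immediate-early gene Fos, at 0.57 and 0.57 in line 2 and 1.75 and 1.75 in line 1, a difference of -1.18 ± 0.06 (limma adjusted p = 7.07e-07). Among genes of FGF and ERK signalling 6 were called higher and 5 lower of 22, with Dusp4, an ERK phosphatase, lower (difference -1.03 ± 0.05) and Spry4, a feedback inhibitor, higher (0.80 ± 0.12). For Nodal, Lefty and BMP the counts were 3 and 3 of 17. Between the control-kd lines 13 of the 22 FGF and ERK genes and 7 of the 17 Nodal, Lefty and BMP genes were called. The Nodal antagonist Lefty1 stood at -0.99 and -1.13 in line 2 and at -2.10 and -1.97 in line 1, a difference of 0.98 ± 0.07 (limma adjusted p = 9.53e-06). Between the control-kd lines Lefty1 differed by -1.32 ± 0.07.

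The gene furthest up in line 2 was a Hox gene, one of the clustered homeobox genes that set position along the body axis. Hoxb2 stood at 2.30 and 2.25 in Taf5-kd line 2 and at 0.29 and 0.32 in line 1. All 4 control-kd arrays were between -0.22 and -0.07, so line 2 stands apart from the other 3 lines, by 3.91-fold from line 1 (difference 1.97 ± 0.07, limma adjusted p = 1.06e-07). Hoxa5 was at 1.62 and 1.74 in line 2 and 0.45 and 0.51 in line 1 (difference 1.20 ± 0.07, limma adjusted p = 2.79e-06). Hoxa10 and Hoxb3 differed by 0.95 ± 0.07 and 0.57 ± 0.05. These probes were dim, with a mean log2 brightness of 6.95 (Hoxb2), 6.70 (Hoxa5), 7.41 (Hoxa10) and 7.08 (Hoxb3), against 9.19 for T. All 4 genes were above background on both arrays of each Taf5-kd line, as were 25 of the 29 Hox genes measured. Of 29 Hox genes 9 were called higher and 1 lower, against 5.58 and 9.23% of all genes, with a median of 0.15. Between the control-kd lines 3 were called, against 17.6% of all genes.

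Interferon-response and antigen-presentation genes formed the list with the lowest median difference of the 45 lists looked at, -0.24. Of 30 measured, 16 were called lower and 1 higher in line 2 (21 at an unadjusted p under 0.05), against 9.23 and 5.58% of all genes. Between the control-kd lines 8 were called, against 17.6% of all genes. Gbp3, a guanylate-binding protein of the cell-autonomous defence against pathogens, stood at -0.28 and -0.45 in line 2 and at 1.40 and 1.49 in line 1. All 4 control-kd arrays were between -2.43 and -2.40, so the order of the lines is Taf5-kd line 1, Taf5-kd line 2, then the controls, and the difference was -1.81 ± 0.07 or 3.51-fold (limma adjusted p = 2.03e-07). The same order held for Gbp2, at -0.45 and -0.48 in line 2 and 1.23 and 1.25 in line 1 (difference -1.70 ± 0.05, limma adjusted p = 8.79e-08), and for Irf1, a transcription factor of the interferon response, at -0.34 and -0.37 in line 2 and 0.88 and 0.89 in line 1. Irf1 differed by -1.24 ± 0.06 (limma adjusted p = 8.04e-07). Psmb8, a subunit of the immunoproteasome, differed by -1.27 ± 0.06 and was above background on 1 of the 2 line 2 arrays. Tap2 and Tap1, the peptide transporter, B2m, the light chain of MHC class I, and Isg15, a ubiquitin-like modifier, were lower (differences -0.90 ± 0.06, -0.77 ± 0.08, -0.70 ± 0.07 and -0.58 ± 0.07). Ifitm3, a membrane protein that blocks virus entry and is also high in early germ cells, was the 1 member called higher, by 0.91 ± 0.06. Gbp2b and the immunity-related GTPase Igtp, which were not in the list, were 3.86-fold and 3.36-fold lower in line 2. The Gbp genes, and Igtp with its relatives, are near-identical in parts, so which family member a probe reads is uncertain.

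The 250 bases upstream of the RefSeq start of 4 of these genes are printed because they hold the core of the interferon-stimulated response element, on either strand: GAAA, any 2 bases, then GAAA again. The motif is in capitals, overlapping matches are joined, and each sequence is read 5′ to 3′ on the gene's strand in assembly GRCm38.p6 (RefSeq). The intervals are chr3:142559794-142560043 (Gbp3, plus strand), chr3:142620413-142620662 (Gbp2, plus strand), chr2:122147437-122147686 (B2m, plus strand) and chr4:156200819-156201068 (Isg15, minus strand).
Gbp3: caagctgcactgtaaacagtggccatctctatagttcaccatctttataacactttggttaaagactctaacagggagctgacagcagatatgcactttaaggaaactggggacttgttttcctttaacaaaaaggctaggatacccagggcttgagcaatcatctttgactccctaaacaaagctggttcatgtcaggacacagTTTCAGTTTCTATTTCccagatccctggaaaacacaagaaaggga
Gbp2: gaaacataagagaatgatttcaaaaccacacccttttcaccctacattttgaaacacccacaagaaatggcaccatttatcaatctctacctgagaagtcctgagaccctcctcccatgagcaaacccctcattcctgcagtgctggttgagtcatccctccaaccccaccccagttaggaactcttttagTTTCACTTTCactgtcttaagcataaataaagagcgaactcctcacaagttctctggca
B2m: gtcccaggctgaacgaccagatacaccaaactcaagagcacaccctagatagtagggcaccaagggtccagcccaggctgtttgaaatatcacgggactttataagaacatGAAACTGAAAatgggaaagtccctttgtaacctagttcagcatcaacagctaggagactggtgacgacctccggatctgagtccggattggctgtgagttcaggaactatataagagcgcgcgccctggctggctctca
Isg15: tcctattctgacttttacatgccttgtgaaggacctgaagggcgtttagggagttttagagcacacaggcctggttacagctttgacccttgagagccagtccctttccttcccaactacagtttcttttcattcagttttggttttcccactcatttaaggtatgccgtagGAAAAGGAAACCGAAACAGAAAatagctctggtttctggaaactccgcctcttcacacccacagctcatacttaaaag
Counted back from the start, with -1 as the last base shown, the match covers bases -45 to -30 in Gbp3, -59 to -50 in Gbp2, -139 to -130 in B2m and -78 to -57 in Isg15. Over 14652 genes with a promoter in the table, 492 (3.36%) held the motif in this window. It was present in 12 of 27 interferon-list genes with a promoter, in 7 of the 15 called lower, in 9 of the 49 genes at least 2-fold lower in line 2 and in 2 of the 17 at least 2-fold higher. Of those 9 genes, Gbp2, Gbp2b, Gbp3, Igtp, Irgm1, Irgm2 and Ddx60 are interferon-inducible, and the other two are Cldn7 and Pcsk1, a tight-junction protein and a prohormone convertase. The TATA box core TATAAA, searched on both strands in the same window, was in 12.3% of all genes, 5 of the 49 lower and 3 of the 17 higher ones, and in 8 of the 27 interferon-list genes (29.6%) and 4 of the 15 called lower (26.7%). These matches describe the letters in the window only.

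The keratins of simple epithelia and several junction genes were lower in line 2. Krt8, which pairs with Krt18 to form the filaments of simple epithelia, stood at -2.27 and -2.24 in line 2 and at -0.60 and -0.78 in line 1. Line 1 was thus nearer to the parental pool and line 2 nearer to the control-kd arrays, at -3.71 to -3.28, with a difference of -1.56 ± 0.07 or 2.95-fold (limma adjusted p = 7.61e-07). Krt18 and Krt19 differed by -1.52 ± 0.07 and -1.43 ± 0.09, and these were the 3 called of 9 keratins, whose median difference was -0.04. In the list of cadherins, adhesion and epithelial-mesenchymal transition 10 were called lower and 4 higher of 23, with a median of -0.06. Between the control-kd lines 4 of the 9 keratins and 7 of these 23 genes were called, against 17.6% of all genes. The claudin Cldn7 was at -1.40 and -1.54 in line 2 and -0.33 and -0.36 in line 1 (difference -1.13 ± 0.08, limma adjusted p = 8.26e-06). Cldn6, Cdh1 (E-cadherin) and Epcam were lower (differences -0.78 ± 0.06, -0.69 ± 0.06 and -0.50 ± 0.06), while Zeb2 and Zeb1, which repress E-cadherin, were higher by 0.72 ± 0.05 and 0.50 ± 0.06. Snai1, another repressor of E-cadherin, and Cdh2 (N-cadherin) were lower (differences -0.45 ± 0.05 and -0.26 ± 0.06). Other probes of Zeb2 gave differences between -0.04 and 0.32.

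Trophectoderm and placental genes, a list that shares Cdx2, Eomes and the keratins with those above, had 6 called lower and 1 higher of 19. Among annexins and S100 proteins 5 were lower and 1 higher of 15. S100a10, the partner of annexin A2, stood at -0.43 and -0.57 in line 2 and at 0.53 and 0.59 in line 1 (difference -1.06 ± 0.07, limma adjusted p = 5.53e-06), while Anxa1 was higher by 0.87 ± 0.06. Actin cytoskeleton and SRF target genes had 9 lower and 2 higher of 27, the named members lying between -0.58 (Ccn1) and 0.53 (Tagln). YAP and TEAD targets had 7 lower and 4 higher of 18. Their largest difference was in Igfbp3, which binds insulin-like growth factors, at -1.44 and -1.36 in line 2 and 0.81 and 0.85 in line 1. Igfbp3 was 4.68-fold lower in line 2 (difference -2.23 ± 0.06, limma adjusted p = 5.16e-08), and its other probes differed by -2.08 ± 0.12 and -0.73 ± 0.06. Between the control-kd lines 6 of 19 trophectoderm and 4 of 15 annexin and S100 genes were called, against 17.6% of all genes. The counts there were 11 of 27 for actin and SRF targets and 6 of 18 for YAP and TEAD targets.

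Genes of the primitive endoderm and basement membrane were higher in line 2, 11 of 24 against 1 lower, with a median of 0.18. More of them, 17 of 24, were called between the control-kd lines, against 17.6% of all genes. Cubn, the endocytic receptor cubilin, stood at 0.68 and 0.46 in line 2 and at -0.32 and -0.29 in line 1 (difference 0.87 ± 0.08, limma adjusted p = 5.97e-05). Nid1 and Lama1, components of basement membrane, were higher by 0.60 ± 0.07 and 0.59 ± 0.06. Srgn, the proteoglycan serglycin, was at 1.41 and 1.17 in line 2 and -0.16 and 0.01 in line 1, a difference of 1.37 ± 0.09 (limma adjusted p = 4.62e-06), and it differed by 4.45 ± 0.09 between the control-kd lines.

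Collagen and matrix genes split into 8 higher and 4 lower of 24. Col1a1, the main chain of type I collagen, stood at -0.66 and -0.68 in line 2 and at -2.10 and -2.20 in line 1, with the control-kd arrays between -3.57 and -3.24. The difference on this probe was 1.48 ± 0.06 or 2.79-fold (limma adjusted p = 3.45e-07), but 2 dimmer Col1a1 probes differed by 0.28 ± 0.06 and 0.09 ± 0.05, so its size is uncertain.

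Germline genes were higher in line 2 for 9 of 23 and lower for 1, with a median of 0.15. Stra8, the retinoic-acid-induced factor for entry into meiosis, stood at 0.25 and 0.22 in line 2 and at -1.15 and -1.03 in line 1 (difference 1.32 ± 0.06, 2.50-fold, limma adjusted p = 5.84e-07). The control-kd arrays were between 0.02 and 0.52 for Stra8, so line 1 is the low one. Hormad1, a meiotic chromosome protein, and Ddx4 (Vasa), a germ-cell helicase, differed by 0.53 ± 0.06 and 0.45 ± 0.06. Of 15 genes of the 2-cell-like state and of maternal factors 5 were higher and 1 lower, with Khdc3, of the oocyte cortex complex, at -1.38 and -1.42 in line 2 and -2.12 and -2.12 in line 1 (difference 0.73 ± 0.05, limma adjusted p = 1.25e-05). Khdc3 differed more in size between the control-kd lines, by -1.51 ± 0.05. There 8 of the 23 germline genes and 5 of these 15 genes were called, against 17.6% of all genes.

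Imprinted genes moved both ways, 4 higher and 7 lower of 26. Cdkn1c (p57), a maternally expressed inhibitor of cyclin-dependent kinases, stood at -1.18 and -1.15 in line 2 and at 0.24 and 0.26 in line 1. The control-kd arrays were between -0.16 and -0.05, so line 2 is the low one, by 2.68-fold (difference -1.42 ± 0.05, limma adjusted p = 2.86e-07). Grb10, an adaptor that dampens insulin signalling, was below both control-kd lines in both clones, at -1.68 and -1.69 in line 2 and -0.69 and -0.72 in line 1 (difference -0.98 ± 0.05, limma adjusted p = 1.64e-06). The paternally expressed Mest was higher by 0.84 ± 0.09, at 0.81 and 0.79 in line 2 and 0.02 and -0.11 in line 1, and stood at -6.36 and -6.08 in control-kd line 1. Igf2r, a receptor that clears IGF2, was higher by 0.56 ± 0.07.

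Lists for stress, metabolism and growth were counted in the same way, to be read against 5.58% of all genes higher and 9.23% lower. The ATF4 response had 7 higher and 7 lower of 26, with Atf4, its transcription factor, higher by 0.57 ± 0.06 and the related Atf3 lower (difference -0.84 ± 0.10). Of 20 genes of the unfolded protein response 2 were higher and 1 lower, led by the transcription factor Xbp1 with 0.82 ± 0.07. Of 20 p53 targets 7 were lower and 1 higher, with a median of -0.14, the largest being Trp53inp1 with -0.51 ± 0.05. The counts for higher and lower genes were 3 and 2 of 29 for glycolysis, 2 and 1 of 33 for oxidative phosphorylation, 5 and 2 of 22 for cholesterol and fatty acid synthesis, 2 and 1 of 31 for ribosomal proteins, 6 and 4 of 31 for G1/S genes, 3 and 0 of 25 for mitotic genes. For ribosome biogenesis and Myc targets they were 4 and 1 of 23, with Myc higher by 0.53 ± 0.06 and Mycn, which can replace it in ES cells, lower (difference -0.59 ± 0.06). Among 16 metal transport genes 3 were lower, of which Slc40a1 (ferroportin), the iron exporter, was at -0.88 and -1.0 in line 2 and 0.42 and 0.44 in line 1 (difference -1.37 ± 0.07, limma adjusted p = 8.05e-07). Between the control-kd lines 16 of 26 ATF4 genes, 14 of 20 unfolded protein response genes and 9 of 20 p53 targets were called. Of 29 glycolysis genes 16 were called there, and of 22 cholesterol and fatty acid genes 17, against 17.6% of all genes. Counts were lower for oxidative phosphorylation (4 of 33), ribosomal proteins (5 of 31) and ribosome biogenesis (3 of 23). The others were 8 of 31 for G1/S, 7 of 25 for mitotic and 6 of 16 for metal transport genes.

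The transcription machinery outside TFIID had called shares near or under the 14.8% of all genes, and every call was under 1.5-fold: 3 higher and 1 lower of 33 general factors and RNA polymerase II subunits, 1 and 2 of 22 SAGA and ATAC subunits, and 2 and 1 of 31 Mediator subunits. All 10 members called in these lists, among them Gtf2h1 (0.28), Kat2b (0.33) and Med7 (-0.35), lost their call when certain single Taf5-kd arrays were left out, with limma adjusted p-values of up to 0.324 (Ccnh). Of 25 genes of DNA methylation and Polycomb 6 were higher and 4 lower, with Jarid2, which recruits Polycomb repressive complex 2 in ES cells, at -0.58 and -0.60 in line 2 and -1.23 and -1.21 in line 1 (difference 0.63 ± 0.06, limma adjusted p = 6.20e-05).

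**Figure D3:**
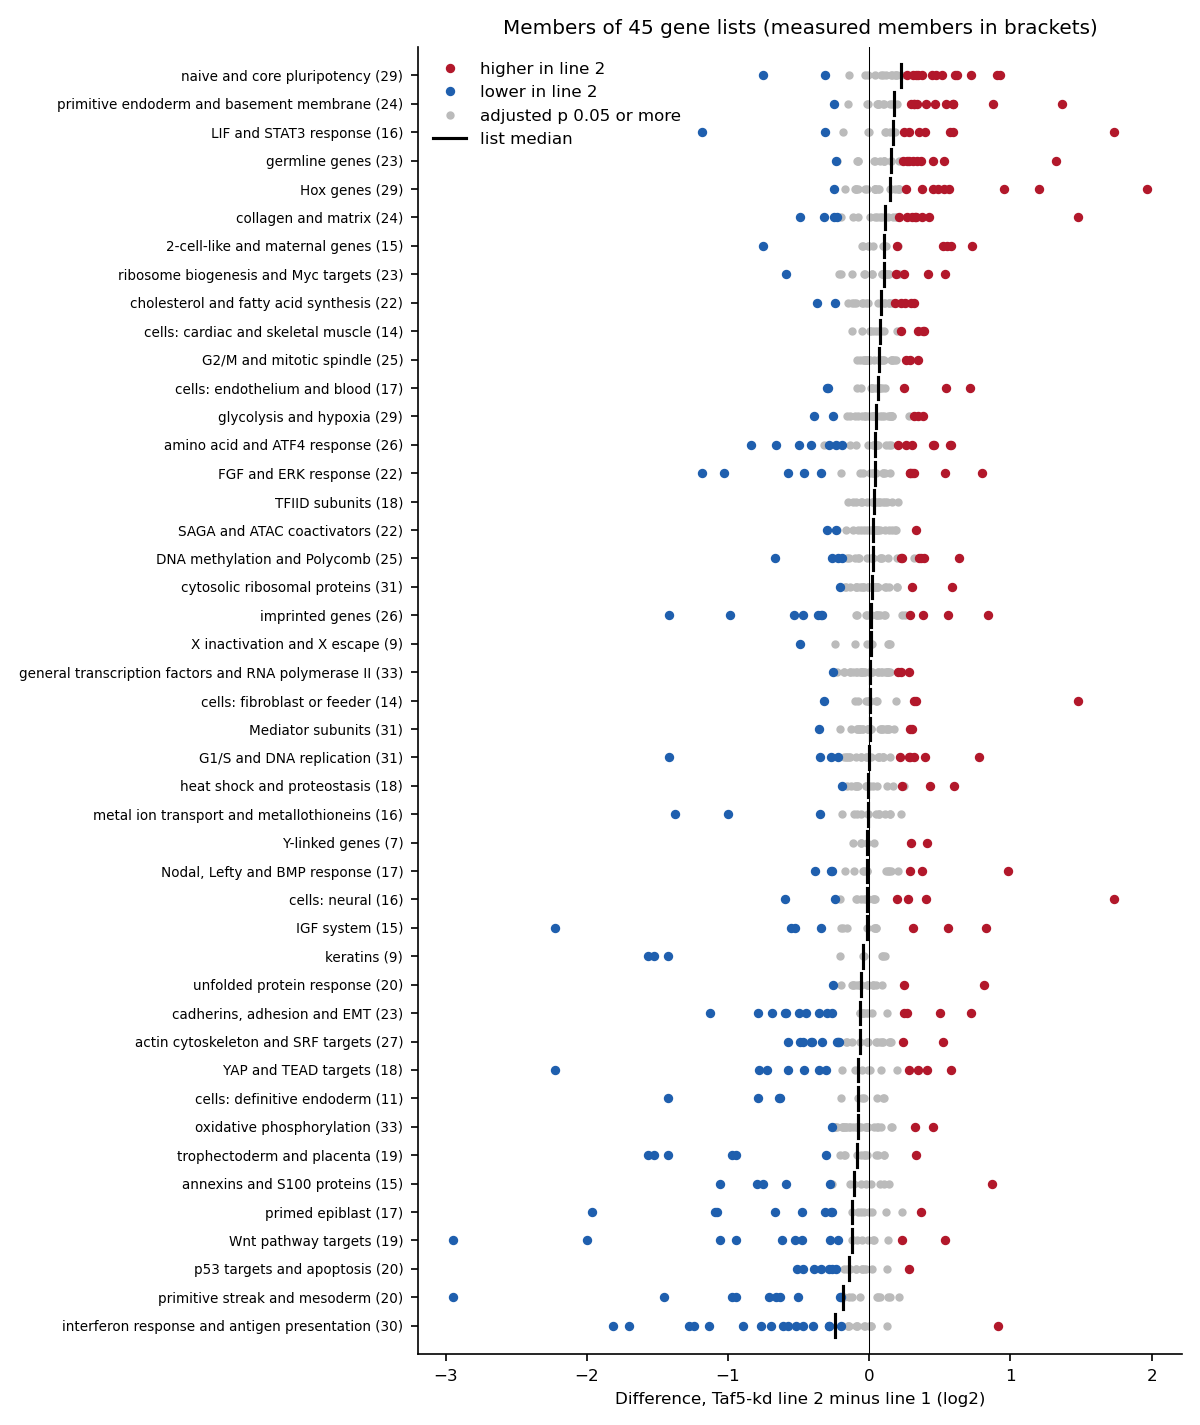
Difference Taf5-kd line 2 minus line 1 (log2, x axis) of each measured member of 45 gene lists, ordered by list median, with called members in red (higher in line 2) or blue (lower) and the list median as a bar. Pluripotency genes are at the top with a median of 0.22 and interferon genes at the bottom with -0.24.

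Markers of other cell types were looked up for the same 2 lines, to be read against 5.58% of all genes higher and 9.23% lower. Neural markers had 4 called higher and 2 lower of 16, fibroblast and feeder markers 3 and 1 of 14, endothelial and blood markers 3 and 2 of 17, muscle markers 4 and 0 of 14, and definitive endoderm markers 0 and 4 of 11. The median differences were between -0.08 and 0.08. Above background on all 4 Taf5-kd arrays were 11 of the 14 fibroblast, 13 of the 14 muscle, 10 of the 11 endoderm, 15 of the 16 neural and 17 of the 17 endothelial and blood markers. On each of these arrays 90.9 to 98.7% of all probes were above background, so these shares do not show that the markers were expressed. The neural list contains Gbx2, the fibroblast list Col1a1, and the endoderm list Krt19, Cldn6 and Gsc, described above. The next largest differences were those of Pecam1 (0.71 ± 0.06), an adhesion molecule of endothelium and of ES cells, Trh (-0.64 ± 0.08), a hormone precursor, and Map2 (-0.60 ± 0.06), a neuronal microtubule protein. A dimmer Pecam1 probe differed by -0.24 ± 0.11 and dimmer Map2 probes by -0.10 to 0.04, and none of these was called. The 4 muscle markers Nkx2-5, Myh7, Actc1 and Des differed by 0.23 to 0.39, and all but Actc1 lost their call when certain single Taf5-kd arrays were left out (limma adjusted p between 0.053 and 0.285). The part of other cell types in the differences between the lines was not tested.

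The position of each clone against the other lines was then described. Among the 101 probes at least 2-fold lower in line 2, the median log2 ratio was -0.37 in Taf5-kd line 2 and 0.94 in Taf5-kd line 1, against -1.01 in control-kd line 2 and -0.98 in control-kd line 1. For 97 of the 101, line 2 was the nearer of the 2 clones to the mean of the control-kd lines, and for 67 it was the nearer to the parental pool. Only line 2 was at least 2-fold from the parental pool for 19 of these probes, and only line 1 for 46. Among the 41 probes at least 2-fold higher in line 2, the medians were 0.40 in Taf5-kd line 2 and -0.82 in Taf5-kd line 1, against 0.07 and -0.04 in control-kd lines 2 and 1, and line 2 was nearer to the control-kd mean for 20. Over all 41174 probes line 2 was nearer for 24003 (58.3%). The 2 distances use the same control-kd arrays, so these counts are a description.

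**Figure D4:**
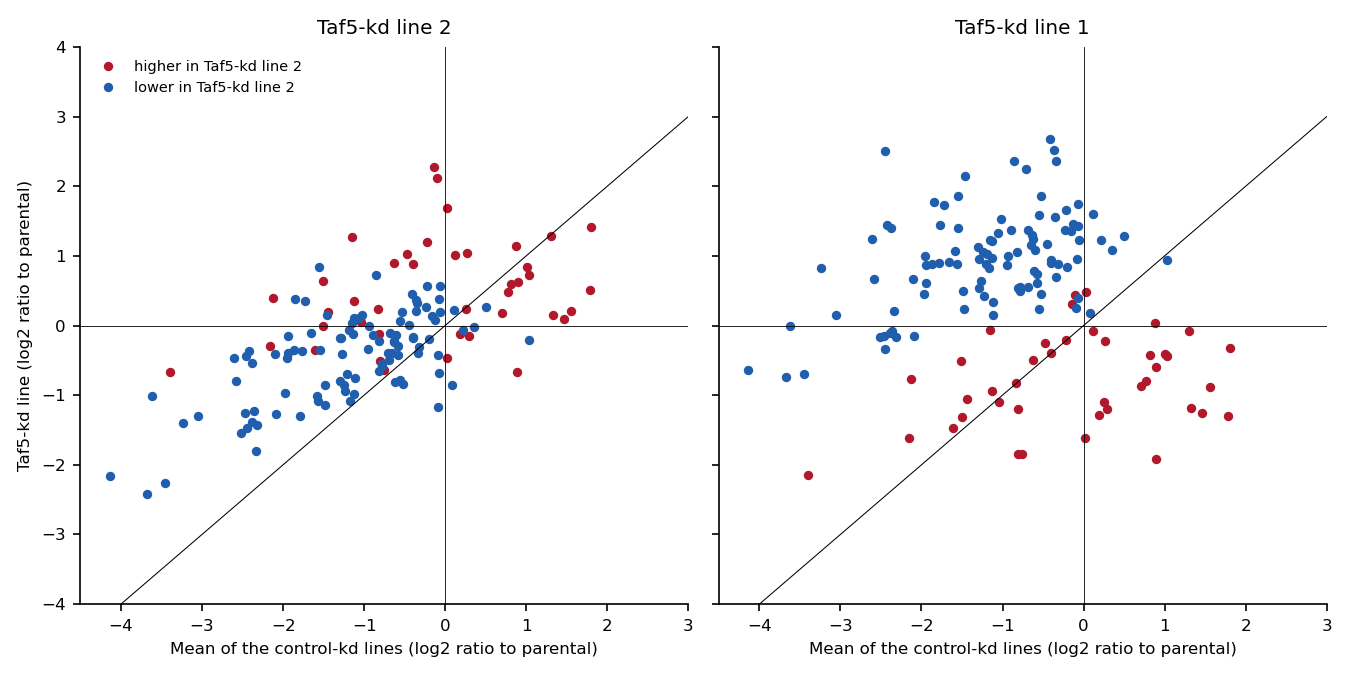
Log2 ratio to the parental pool of Taf5-kd line 2 (left) and line 1 (right) on the y axis against the mean of the control-kd lines on the x axis, for the 142 probes called at least 2-fold different. The diagonal marks equal values. Blue probes (lower in line 2) have a median of -0.37 in line 2 and 0.94 in line 1. Their medians are -1.01 and -0.98 in control-kd lines 2 and 1.

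Some of the genes that differed between the Taf5-kd clones also differed between the control-kd clones. Probes called in both numbered 1685, which is 37.0% of the calls between the Taf5-kd clones and 27.9% of those between the control-kd clones. At least 2-fold in both were 9 probes, 6.34 and 7.89% of the 2 sets, and 65 of the 142 (45.8%) were called between the control-kd clones at any size. The 5 genes with the largest differences in both pairs were Srgn, Fgf5, Dusp4, Amot and Otx2. Fgf5 differed by -1.96 ± 0.09 between the Taf5-kd lines and by 1.17 ± 0.09 between the control-kd lines, and Otx2 by -1.10 ± 0.06 and 1.35 ± 0.06. Amot, a regulator of YAP at cell junctions, was at -0.80 and -0.78 in Taf5-kd line 2 and 0.52 and 0.55 in line 1 (difference -1.33 ± 0.05, limma adjusted p = 3.52e-07), and 2 dimmer Amot probes did not pass. The line numbers have no order between the 2 pairs, so only the sizes can be set side by side.

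Several other genes were among the 12 largest differences in either direction. Aard stood at 0.50 and 0.53 in line 2 and at -1.24 and -1.36 in line 1, with the control-kd arrays between 1.70 and 1.90 (difference 1.81 ± 0.06, 3.51-fold, limma adjusted p = 1.06e-07). The X-linked Dcaf12l1 was at 1.23 and 1.18 in line 2 and -0.26 and -0.17 in line 1 (difference 1.42 ± 0.06, limma adjusted p = 3.74e-07). Cyp1b1, a cytochrome P450 induced through the aryl hydrocarbon receptor, Nts, the neuropeptide neurotensin, Ak7, an adenylate kinase of motile cilia, Adgra2, an adhesion receptor, and Wt1, a transcription factor of kidney and gonad, were 2.43-fold to 2.63-fold higher in line 2. Ppp4r4, a regulatory subunit of protein phosphatase 4, was at -1.24 and -1.36 in line 2 and 0.84 and 0.95 in line 1, 4.57-fold lower (limma adjusted p = 1.03e-07). A dimmer Ppp4r4 probe differed less, by -1.05 ± 0.08. Efemp1, the matrix protein fibulin-3, and Nefm, a neurofilament, were 4.03-fold and 3.11-fold lower. Of 2 dimmer Ak7 probes the brighter differed by 1.33 ± 0.07 (limma adjusted p = 1.42e-06) and the other by 0.03 ± 0.06, and a dimmer Nefm probe differed by 0.09 ± 0.07. A probe named Sprr2a1, chosen after its values were seen, stood at -0.34 and -0.44 in line 2 and 2.21 and 2.27 in line 1 (difference -2.63 ± 0.06), while the brighter probe of that name differed by 0.07 ± 0.05.

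Differences were also followed along the chromosomes, over 9123 genes brighter than the median gene with a known position. Chromosome X had the lowest median, -0.06, and chromosome 7 the highest, 0.03. Of 289 X-linked genes 79 were called lower in line 2 (27.3%), against 12.1% of all 9123, and 16 higher. X-linked transcripts that mark X inactivation and escape showed 1 call of 9, Rlim, a ubiquitin ligase that acts on Xist, lower in line 2 (difference -0.49 ± 0.05). Of 7 Y-linked genes Uty (0.41 ± 0.07) and Usp9y (0.30 ± 0.07) were called higher. Usp9y lost its call without any 1 of the 4 Taf5-kd arrays (limma adjusted p between 0.089 and 0.179), and 3 dimmer Uty probes did not pass.

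In windows of 15 neighbouring genes, 8 runs, holding 164 genes, had a window whose median difference was at least 0.25 in size, 2 higher and 6 lower in line 2. The window was chosen from these data, so the runs are a description with no test. On chromosome 1 the run Lmbrd1 to Txndc9 held 28 genes, and its strongest window, Prim2 to Tmem131, had a median of 0.45, with 11 of 15 genes called higher and 0.42 and 0.46 in the 2 array pairs. On chromosome 8 the run Pdgfrl to Aga held 25 genes and included Zfp42. Its strongest window, Asah1 to Trappc11, had a median difference of 0.43, with 12 of 15 called higher and median log2 ratios of 0.64 in Taf5-kd line 2 and 0.21 in line 1, against -0.08 and 0.00 in control-kd lines 2 and 1. Over all 500 chromosome 8 genes the medians were 0.19 in Taf5-kd line 2 and 0.14 in line 1. They were -0.15 in both control-kd lines, so a gap to the controls was not limited to this run. On chromosome 4 the run Tmem68 to Rad54b held 22 genes, with a strongest window of -0.35 in which 12 of 15 were called lower. Penk, the enkephalin precursor, was the furthest down there, with -1.19 ± 0.05. Of the other runs 3 were on X and 1 each on chromosomes 10 and 19, with medians from -0.31 to -0.25. The run at -0.31, Fgf13 to Zfp185 on X, had medians of -0.18 and -0.37 in the 2 array pairs, with 7 of 15 genes called lower. Its median log2 ratios went the other way, -0.07 in Taf5-kd line 2 and -0.11 in line 1. Between the control-kd clones 6 runs held 433 genes, the longest 216 genes on chromosome 2. Zfp42 was the only gene of the pluripotency list in a run. Without it the list median was 0.21, against 0.22 with it, but leaving out 1 gene could hardly move a median over 29 genes.

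**Figure D5:**
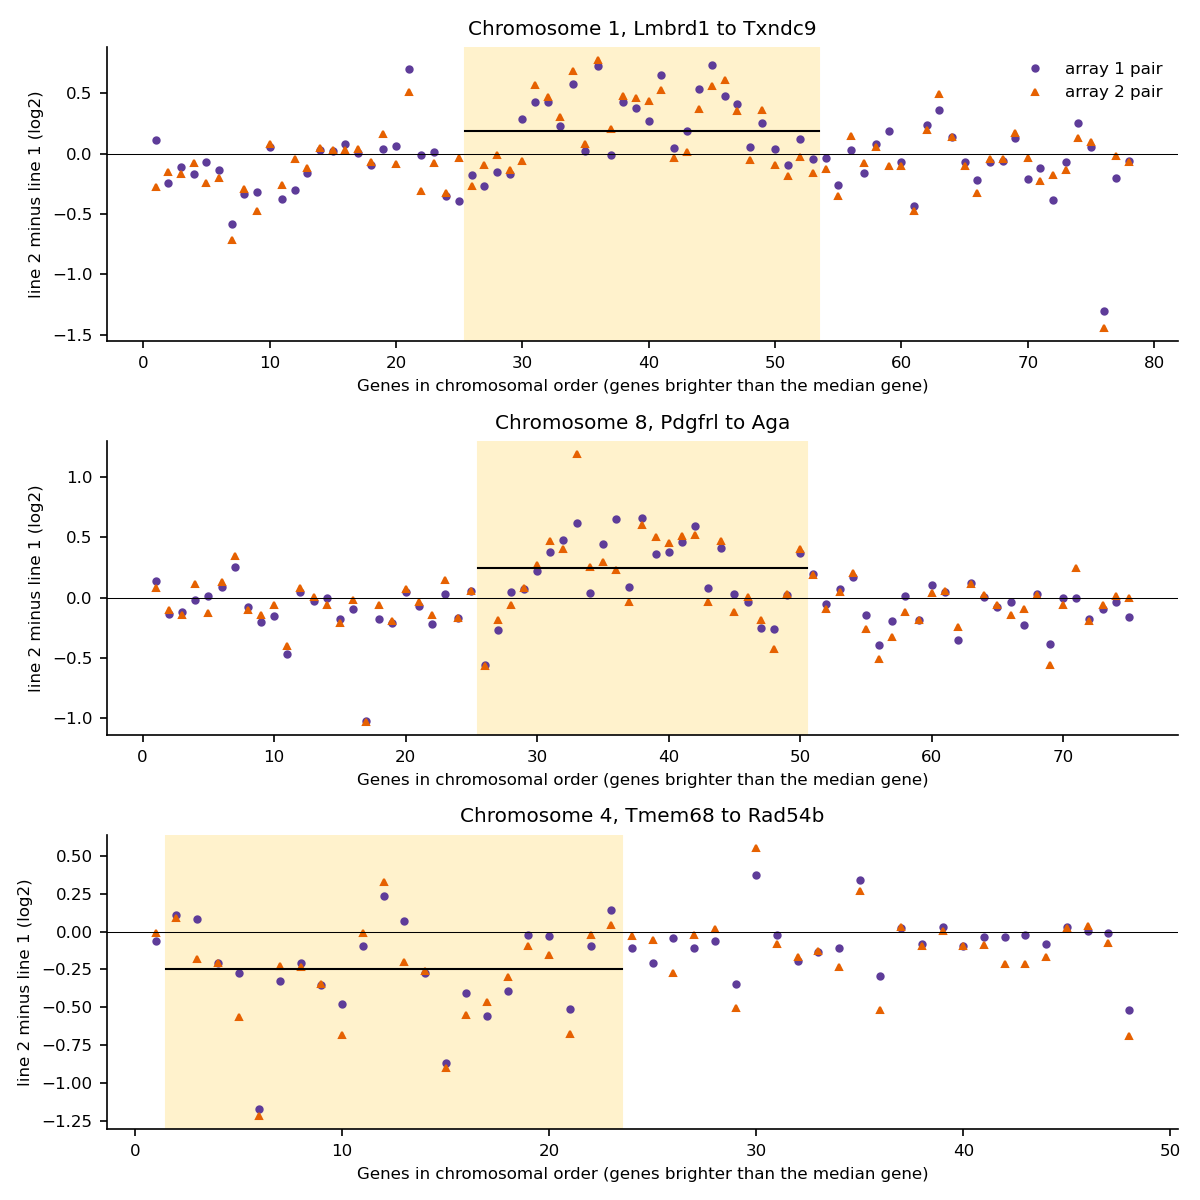
Difference Taf5-kd line 2 minus line 1 (log2, y axis) of neighbouring genes in chromosomal order (x axis) on the array 1 pair (circles) and array 2 pair (triangles), with the run shaded and its median as a bar. Within the shaded runs on chromosomes 1 and 8 blocks of neighbours are higher, and on chromosome 4 lower, in both array pairs.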

How the data were processed

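RNA of 4 clonal ES cell lines was hybridised against a parental pool on 8 dual-colour arrays. The deposited matrix contains the authors' log2 ratios (line over parental pool), and these were used for all main values. Their direction was checked against the scanner intensity values (mean signal and local background per spot, deposited without normalization, per the file headers), with which they correlated at 0.806 to 0.961 across bright probes. How the authors subtracted background and normalized was not given in the sources used here. A comparison table deposited by the authors, with log2 differences and a p-value per the file headers, served as a check only. The line difference taken from it equals the fitted one plus a constant of 0.0109. In the processed values the mean dye difference over lines had an SD of 0.00546 across probes, against 0.168 in the scanner values, so a dye effect had been removed before deposit.

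Of 45220 spots 4046 were controls and were left out. Of 41174 mouse probes, 34186 had 1 gene symbol in the platform annotation and 6988 had none. The RefSeq table of GRCm38.p6 served to bring symbols up to date: 3726 were updated, and 75 ambiguous and 20 unmatched ones were kept. The fit used limma 3.58.1 in R 4.3.3 (lmFit and eBayes, two-sided): 1 mean per line and a dye term, over all 8 arrays, with 3 residual and 7.14 prior degrees of freedom. Spots over the background median plus 2 background SDs were taken as above background. Tables and plots were made with pandas 2.3.3 and matplotlib 3.10.9 in Python 3.11.15. The script was tested on simulated data. Of 70 called named genes with another probe, 37 had at least 1 other probe that was not called and 1 (Rps20) had one called the opposite way.

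The dye, given in the labels, pairs arrays of the same number. Deviations of same-numbered arrays from their line means correlated at 0.629 to 0.784 between lines in scanner values (normexp with an offset of 50, loess) and at -0.437 to -0.156 in the processed values, from which the dye effect had been removed.

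The compared lines, gene lists and windows were chosen with earlier results of these data known. Genes were named by a rule: Taf5, the 12 largest higher and 12 largest lower genes that passed, moved the same way in both array pairs and were above background, up to 4 called members per list (or 2 with the smallest p), and 5 genes called in both pairs of clones. Further list members, and the genes whose promoters are printed, were picked after their values were seen.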

Additional observations from a re-analysis of the deposited data

How the results depend on the processing

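Every array left out in turn gave 2034 to 4520 called probes between the Taf5-kd lines and 3486 to 5776 between the control-kd lines, and 141 to 184 and 114 to 132 of at least 2-fold. Scanner values gave 4230 and 4643 calls after normexp and loess, with 119 and 74 of at least 2-fold, and 112 and 377 after normexp and median centring, with 104 and 285. The brightest probe of each feature gave 3373 and 4001 calls from 25283 features, which is fewer tests. Without the dye term, which is the replicate block that pairs same-numbered arrays, 6747 and 8541 probes were called, and 0 of 159 called genes named here lost their call. The cause of the other changes was not tested. The Taf5 difference turned to -0.0314, -0.0016 and -0.0678 with scanner values after normexp and loess, loess without background subtraction, and normexp with median centring, and ranged from -0.0403 (without array 1 of Taf5-kd line 2) to 0.105 (without its array 2) with an array left out, the adjusted p staying between 0.532 and 1. Of the 159 named genes 0 turned sign under any of 16 alternatives. A call was lost by 120 under median centring, by 30 to 33 when a Taf5-kd array was left out, by 9 with normexp and loess and by 4 or fewer otherwise. The lost calls with an array left out are of genes with small differences, such as Usp9y, Gtf2h4 and Thy1. The median of pluripotency genes ranged from 0.18 to 0.25 and that of interferon genes from -0.31 to -0.18. With windows of 11 and 21 genes, chosen after seeing the data, 14 and 3 runs were found, and those on chromosomes 1, 4 and 8 were found with both.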
